A study of Homo sapiens with 6 samples.

Results

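Sphingosine 1-phosphate (S1P) is a lipid messenger, and the genes described here encode its receptors and the enzymes that make and remove it: S1PR1, S1PR2, S1PR3, SPHK1, SPHK2, SGPL1, SGPP1 and PLPP3. They were followed in cells of U251, a long-established line from a human glioma, kept for 24 h on electrospun nanofibers of poly-caprolactone, a polyester. In 3 cultures the fibers were highly aligned and in 3 they lay at random, and each independent culture gave 1 Affymetrix HG-U133 Plus 2 array, all in DMEM with 10% fetal bovine serum and with no other agent. Both groups are 1 cell line, and neither contains cells on a flat surface. Members were taken as probe sets annotated with exactly 1 gene symbol, that symbol being one of the 8. This gave 14 probe sets for 7 genes, out of 19775 genes with such a probe set on the array. Expression of SPHK2 was not analysed here, and only its promoter windows enter the motif counts below. S1PR1 had been noted as higher on aligned fibers in these same arrays, so its difference, and every other member's difference in this comparison, is given as a description, with no p-value of its own. Counts from the fit over all probe sets stand beside the background share, and nothing is read from them.

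S1P is made inside the cell when a sphingosine kinase phosphorylates sphingosine, is exported, and then acts on G protein-coupled receptors at the surface of the same or a neighbouring cell. S1PR1 signals through Gi towards Rac and favours migration, S1PR2 signals strongly through G12 and G13 and restrains migration in many cells, and S1PR3 couples to several G proteins. Phosphatases return S1P to sphingosine, while the lyase SGPL1 cleaves it for good. In glioma cells S1P is known as a stimulus of motility and growth, and fetal bovine serum itself carries S1P.

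The regulatory stretches of S1PR1 and SPHK1 are shown because these were the members whose aligned and random arrays did not overlap. Each is the 250 bases before a RefSeq transcript start on GRCh38.p14, plus strand, written 5′ to 3′, with capitals marking CACCC or its reverse complement GGGTG, the core bound by KLF factors. The S1PR1 window is chr1:101236769-101237018 and the SPHK1 window, before the first of 3 annotated starts, is chr17:76382954-76383203.
S1PR1: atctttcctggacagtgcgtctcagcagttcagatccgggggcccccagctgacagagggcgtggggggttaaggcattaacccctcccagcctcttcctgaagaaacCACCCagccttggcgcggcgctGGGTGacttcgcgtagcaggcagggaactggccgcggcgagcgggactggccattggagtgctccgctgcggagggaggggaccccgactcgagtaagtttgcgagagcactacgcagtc
SPHK1: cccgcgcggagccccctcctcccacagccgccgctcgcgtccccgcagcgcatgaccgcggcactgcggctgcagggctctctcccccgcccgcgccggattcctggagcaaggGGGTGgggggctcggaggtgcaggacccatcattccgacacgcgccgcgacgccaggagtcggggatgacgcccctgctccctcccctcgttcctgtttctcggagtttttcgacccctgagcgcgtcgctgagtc
The S1PR1 window held 2 such matches, beginning 142 and 120 bases before the start, and the SPHK1 window held 1, beginning 136 bases before it. On either strand CACCC occurred in 54.7% of all 35116 promoter windows of this length, and in 8 of the 11 windows of the members, so its presence does not set these genes apart. The third annotated start of SPHK1 was the 1 member window with the AP-1 motif TGANTCA, searched on both strands. Of all windows 6.57% held this motif, so 1 match among the 11 member windows does not set SPHK1 apart. The stretch around the match, at chr17:76385197-76385223, is given with the motif in capitals.
SPHK1 start 3: cacggggctcTGACTCAtccgtcgggc
The motifs TTCNNNGAA (STAT), GGAATG (TEAD) and TGACGTCA (CRE) were absent from the S1PR1 window on both strands, where 6.57%, 11.9% and 1.65% of all windows held them. The SPHK1 window printed in full held 1 of them, GGAATG in reverse complement, beginning 106 bases before the start. These are letter matches and not measurements of binding.

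All values are log2 signals after robust multi-array averaging (RMA), 1 per probe set and array, and a difference of 1 is a doubling. The array of aligned replicate 3 stood apart: over 12381 genes it lay 0.38 log2 units (root mean square) from the average random array, against 0.17 and 0.19 for aligned 1 and 2. The members' differences are therefore also given without it. Of the glioma and glial markers, VIM, CD44, NES and SLC1A3 were bright, with means on random fibers of 14.23, 12.64, 11.50 and 9.37, and differed by -0.09, -0.11, -0.24 and -0.16 on aligned fibers. GFAP and S100B were dim, at 6.03 and 5.70 on random fibers, and differed by -0.81 and -1.13, with groups that did not overlap for S100B, which failed the filter described next. All 6 thus had a lower mean on aligned fibers, and their summed log2 value was 55.57 to 58.77 on aligned and 57.87 to 60.79 on random fibers. The filter for brightness asked that at least 3 of the 6 arrays lie above their own median. Of 6 endothelial markers 3 passed it, PECAM1, VWF and KDR, and CDH5, TIE1 and CLDN5 did not. All 4 neuron markers, RBFOX3, SYN1, SNAP25 and GAD1, passed. Of 5 leukocyte markers 2 passed, CD3E and AIF1, and PTPRC, ITGAM and CD14 did not. The filter therefore did not set markers of other cell types apart from those of the line. The summed log2 value of the 5 leukocyte markers was 25.99 to 26.22 on aligned and 25.02 to 25.72 on random fibers. For the 6 endothelial markers the sum was 30.14 to 31.75 on aligned and 29.98 to 31.04 on random fibers. For the 4 neuron markers it was 24.73 to 25.22 and 24.53 to 24.91, so in both of these sets the groups overlapped. The part of these shifts in the results was not tested.

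Across the comparison, limma with Benjamini-Hochberg adjustment called 0 of 27621 probe sets and 0 of 12381 genes at an adjusted p under 0.05, which is 0% of both, and 0 members were called. At an unadjusted p under 0.05 there were 2676 probe sets, or 9.69% of those tested, and 3.86% of those tested were at this limit and higher on aligned fibers. The same limit was met by 2 of the 10 member probe sets that passed the filter, those of S1PR1 and SPHK1, both higher. The lowest aligned value exceeded the highest random value in 2101 probe sets, or 7.61%, and the reverse held in 2447, or 8.86%. Among all 14 member probe sets the first was true of the same 2 and the second of 0. Since S1PR1 was picked on this comparison, these counts support nothing further. A bulk array cannot tell more cells that carry a transcript from more transcript per cell.

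S1PR1, the receptor linked to Gi and Rac, read 6.30, 6.67 and 6.96 on aligned fibers 1, 2 and 3 and 5.83, 5.76 and 5.82 on random fibers 1, 2 and 3. Every aligned array was above every random array, with 0.47 log2 units between the lowest aligned and the highest random value, and the random arrays were nearly equal. Means were 6.64 ± 0.33 and 5.80 ± 0.04 (SD, n = 3 each), a difference of 0.84 ± 0.15 (SE), or 1.79-fold. Between arrays of the same number the difference was 0.47, 0.91 and 1.14. The spread of S1PR1 thus lay almost wholly among the aligned cultures, and aligned 3 was the highest. Without aligned 3 the difference was 0.68, and over every array left out in turn it stayed between 0.68 and 1.01. S1PR1 was a transcript of middling signal, at the 51.8th to 68.5th percentile of its array, and it was read by a single probe set. A filter at the 75th percentile of each array therefore removed it. Endothelial, leukocyte and neuron markers that passed the brightness filter had means on random fibers from 5.57 (RBFOX3) to 6.71 (GAD1). The S1PR1 mean of 5.80 on random fibers lay within that range, so the signal alone does not show that S1PR1 was expressed there. A difference at least as large as the 0.84 of S1PR1 was seen in 46 of 12381 genes, S1PR1 included. S1PR1 was picked on this same difference, so nothing is read from that count.

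**Figure D1:**
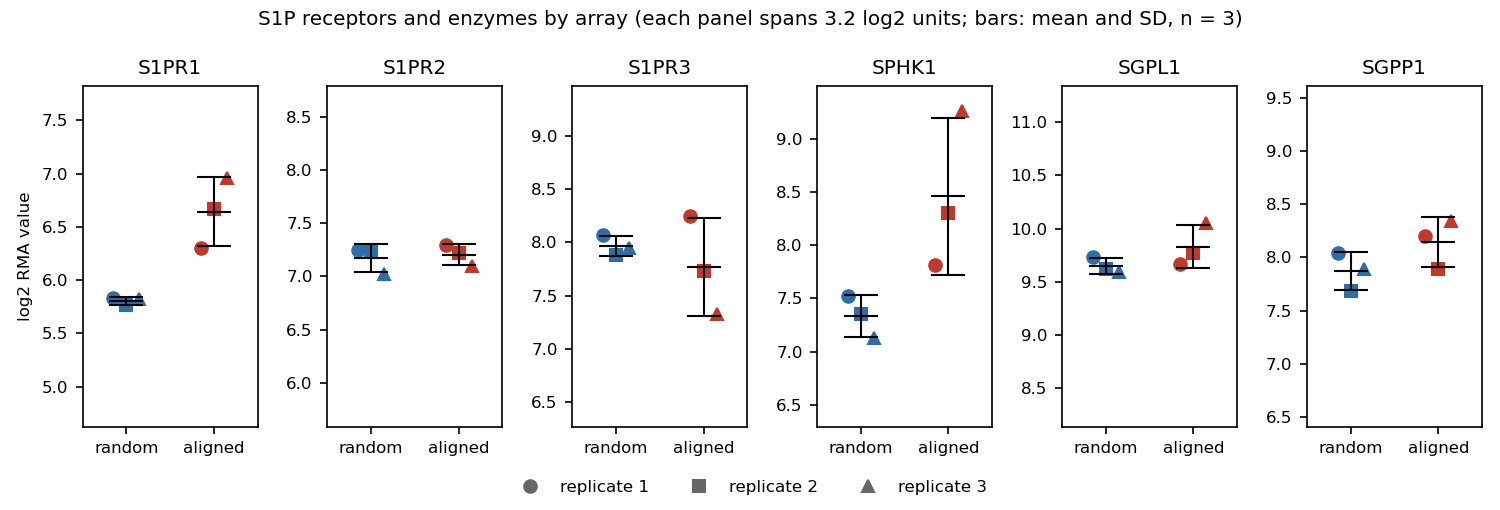
Log2 RMA values (vertical axis) of the 6 members that passed the brightness filter, 1 probe set per gene, for the 3 random and the 3 aligned arrays (horizontal axis). Symbols give the replicate number, bars the mean and SD, and each panel spans the same number of log2 units. The S1PR1 and SPHK1 points on aligned fibers lie above all random points, and in the other 4 genes the groups overlap.

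S1PR2, the receptor linked to G12 and G13, showed almost no difference. Its brighter probe set read 7.30, 7.21 and 7.10 on aligned and 7.25, 7.24 and 7.02 on random fibers. The groups interleaved, and the difference was 0.03 ± 0.10 (SE), or 0.09 without aligned 3. A second probe set was dim, at the 30.3rd to 33.5th percentile, failed the filter and differed by -0.04 ± 0.09 (SE).

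S1PR3, the receptor with several G protein partners, read 8.25, 7.73 and 7.33 on aligned and 8.07, 7.88 and 7.95 on random fibers. The aligned arrays lay on both sides of the random ones, with aligned 1 the highest and aligned 3 the lowest of all 6. The mean difference was -0.20 ± 0.21 (SE), and without aligned 3 it was 0.02. The other S1PR3 probe set, which met the brightness filter with exactly 3 arrays, read 6.06, 5.64 and 5.42 against 5.86, 5.71 and 5.50. It had the same highest and the same lowest array, and its mean difference was 0.02 ± 0.17 (SE), which changed sign to -0.16 without aligned 1 and to -0.08 without random 3 and was 0.16 without aligned 3. The array with the lowest S1PR3 signal, aligned 3, was the one with the highest S1PR1 signal.

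SPHK1, the kinase that makes S1P at the cell periphery and is often high in glioblastoma, read 7.81, 8.31 and 9.26 on aligned fibers. On random fibers it read 7.52, 7.35 and 7.13. Every aligned array was above every random array, by at least 0.29 log2 units, and aligned 3 stood highest. Means were 8.46 ± 0.74 and 7.33 ± 0.20 (SD, n = 3 each), a difference of 1.13 ± 0.33 (SE), or 2.18-fold. The difference between arrays of the same number was 0.29, 0.95 and 2.13, a wider range than for S1PR1. The numbers are not established as pairs, and the aligned arrays alone had an SD of 0.74. Without aligned 3 the mean difference of SPHK1 was 0.73, and without aligned 1 it was 1.45. In 17 of 12381 genes, SPHK1 included, the difference was at least the 1.13 of SPHK1. The members were chosen with earlier results of these data known, so nothing is read from that count. The single SPHK1 probe set carries a suffix that marks probes shared between transcripts, so it does not separate the products of the 3 annotated starts.

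SGPL1, the lyase that ends S1P signalling irreversibly, was among the brighter members. Its brightest probe set read 9.66, 9.77 and 10.05 on aligned and 9.73, 9.62 and 9.60 on random fibers. Aligned 2 and 3 were above the random arrays, aligned 1 was among them, and the mean difference was 0.18 ± 0.11 (SE). The other probe sets differed by 0.26 ± 0.17 and 0.21 ± 0.11 (SE). The first of these read 8.90, 9.27 and 9.63 against 9.06, 9.06 and 8.90. The second read 6.20, 6.16 and 6.20 against 6.19, 5.91 and 5.83, where only the random 1 value lay within the aligned range. All 3 thus had a positive mean difference with overlapping groups. Without aligned 3 the brightest differed by 0.07, the second brightest by 0.08 and the dimmest by 0.20. The second brightest was at 0.45 without aligned 1, and the dimmest was at 0.32 without random 1 and at 0.14 without random 3.

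SGPP1, the phosphatase of the endoplasmic reticulum that turns S1P back into sphingosine, also leaned upwards with overlapping groups. The brighter probe set read 8.20, 7.89 and 8.34 on aligned and 8.04, 7.68 and 7.90 on random fibers. The other read 7.79, 7.39 and 7.98 against 7.66, 7.31 and 7.51. In both, the arrays numbered 2 were the lowest of their group. Differences between arrays of the same number were all positive, at 0.16, 0.21 and 0.45 for the brighter and 0.13, 0.08 and 0.47 for the other. The mean differences were 0.27 ± 0.14 and 0.23 ± 0.16 (SE). Without aligned 3 they were 0.17 and 0.10, and without random 2 they were 0.18 and 0.14. The dimmer probe set was at 0.39 without aligned 2. With replicate number as a block in the fit, 3 member probe sets instead of 2 had an unadjusted p under 0.05. The added one was the brighter SGPP1 probe set. Over all 27621 probe sets the same count rose from 2676 to 3710, so nothing is read from the added member. After adjustment 0 passed.

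PLPP3, a phosphatase at the cell surface that dephosphorylates extracellular lipid phosphates, was dim on every array. Its 3 probe sets lay between the 12.4th and the 38.6th percentile, failed the filter and differed by -0.10, 0.06 and 0.04. No difference is read from probe sets this dim.

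**Figure D2:**
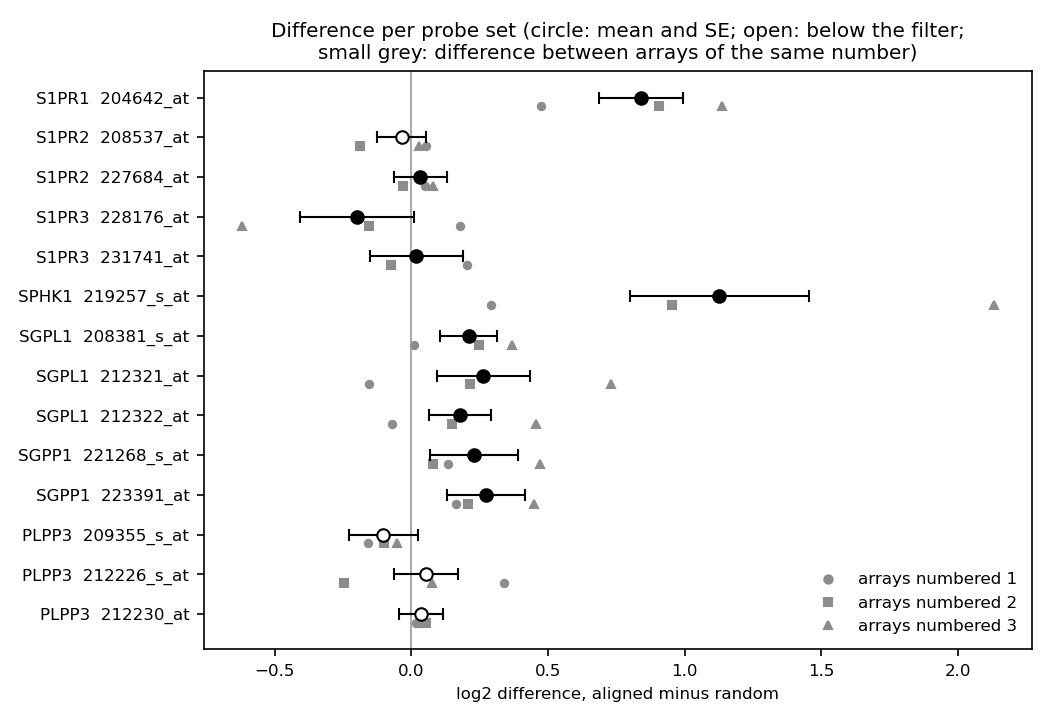
Log2 difference, aligned minus random (horizontal axis), of the 14 member probe sets (vertical axis). Circles with bars give the mean and SE, open circles are the 4 probe sets below the brightness filter, and grey symbols are differences between arrays of the same number. S1PR1 at 0.84 and SPHK1 at 1.13 lie apart from the other 12, which range from -0.20 to 0.27.

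The members thus fell into 2 with separated groups, S1PR1 and SPHK1, and 5 with overlapping groups. Among the latter SGPL1 and SGPP1 had positive means in all 5 of their probe sets, which are repeated readings of 2 genes on the same arrays. The other removing enzyme, PLPP3, was too dim to read. Of 3 further genes of S1P and lipid phosphate breakdown, PLPP1 and PLPP2 differed by -0.22 each and ALDH3A2 by 0.05. The pair of S1PR3 probe sets had means of opposite sign, and the brighter S1PR2 probe set was at 0.03. The arrays did not rank alike for S1PR1 and S1PR3. Aligned 1, the aligned array nearest to the random ones over all genes, had the lowest S1PR1 and SPHK1 values of its group and the highest S1PR3 value.

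**Figure D3:**
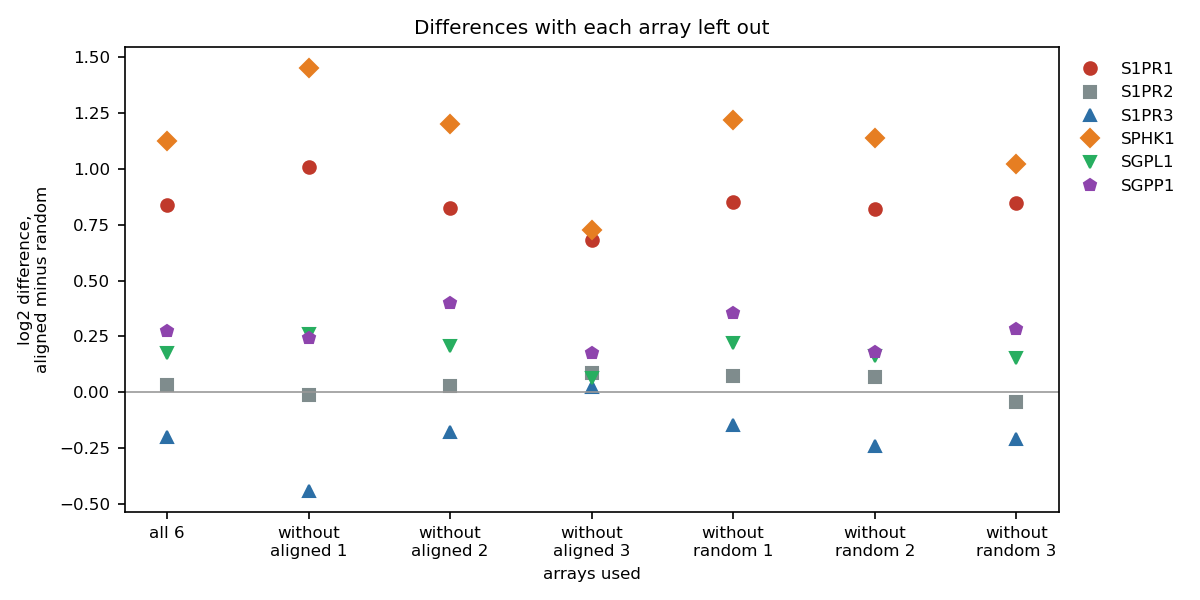
Log2 difference, aligned minus random (vertical axis), of the 6 members that passed the filter, with all 6 arrays and with each array left out in turn (horizontal axis). SPHK1 ranges from 0.73 without aligned 3 to 1.45 without aligned 1, S1PR1 from 0.68 to 1.01, and S1PR3 is at 0.02 without aligned 3 and at -0.44 without aligned 1.

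By root mean square distance over the 6 arrays, after each gene's mean on random fibers was subtracted, the 5 genes nearest to S1PR1 among 12380 were FRMD6, PSAT1, SRGAP1, GADD45A and MTHFD2, at 0.12, 0.13, 0.13, 0.15 and 0.16 log2 units. FRMD6 encodes a FERM domain protein and SRGAP1 a GTPase-activating protein of the Slit and Robo pathway. PSAT1 belongs to serine synthesis, MTHFD2 to mitochondrial folate metabolism, and GADD45A responds to growth arrest and DNA damage. Their differences were 0.71, 0.74, 0.73, 0.67 and 0.64, and without aligned 3 they were 0.50, 0.50, 0.57, 0.47 and 0.42. FRMD6, the nearest, read 8.73, 9.19 and 9.58 against 8.54, 8.46 and 8.36, so it too was highest in aligned 3 and had aligned 1 closest to the random arrays. SPHK1 was at place 206 in this order, at 0.34. The distance describes likeness in these arrays, which all share aligned 3.

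Around the members, 80 further genes of S1P and ceramide metabolism, S1P transport, receptor signalling and S1P response were arranged in 8 lists, and 59 of them passed the filter. In limma with Benjamini-Hochberg adjustment 0 of the 59 passed, and at an unadjusted p under 0.05 there were 5, or 8.47%, with 3 higher and 2 lower on aligned fibers. Over all genes tested the share was 10.5%, made up of 4.72% higher and 5.81% lower. Of the 59 genes 30 had a positive and 29 a negative difference, with a median of 0.01 that equals the median of all genes tested, 0.01. The surrounding genes as a whole therefore lay near the background in share and in median.

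Among the related receptors, S1PR5 read 5.80, 5.74 and 5.61 on aligned and 6.05, 5.85 and 5.86 on random fibers, close to the array median. It was lower on every aligned array, with a difference of -0.20 ± 0.09 (SE), opposite in sign to S1PR1. The other 4 of this list, S1PR4 and the lysophosphatidic acid receptors LPAR1 to LPAR3, overlapped between the groups. The exporter SPNS2 differed by 0.16 ± 0.11 (SE), or 0.07 without aligned 3 and 0.25 without aligned 1, with 2 of 3 measured genes of export and carriage positive. Of the further genes of breakdown, the lipid phosphate phosphatase PLPP1 differed by -0.22 ± 0.12, or -0.34 without aligned 1, and 2 of 3 were negative.

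In de novo ceramide synthesis, the pathway upstream of sphingosine, 4 of 12 genes were positive and 8 negative, with a median of -0.04 and 1 lower gene at an unadjusted p under 0.05. That gene was SPTSSA, a small subunit of serine palmitoyltransferase, at 11.06, 10.75 and 10.44 on aligned and 11.20, 11.04 and 11.09 on random fibers. Its difference was -0.36 ± 0.15 (SE), and -0.20 without aligned 3. In ceramide and sphingomyelin turnover 5 of 8 were positive, and the sphingomyelin synthase gene SGMS2 read 7.72, 7.75 and 8.12 against 7.50, 7.52 and 7.39. Its groups did not overlap, with a difference of 0.39 ± 0.12 (SE). The G proteins and effectors below the receptors had a median of -0.03, with 0 of 15 genes at that unadjusted limit, and GNAI1, a Gi subunit, had the largest difference, -0.35 ± 0.20, which was -0.14 without random 3 and -0.57 without random 1.

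Among 7 regulators and partners of the receptors and kinases, KLF2 and STAT3 differed in opposite directions. KLF2, a transcription factor known to activate S1PR1 in lymphocytes, read 8.56, 9.06 and 10.30 on aligned and 7.99, 7.79 and 7.83 on random fibers. KLF2 was above all random arrays on every aligned array, lowest in aligned 1 and highest in aligned 3. Its difference was 1.44 ± 0.39 (SE), and 0.94 without aligned 3. This order of the aligned arrays was that of S1PR1 but also of SPHK1, FRMD6, PSAT1 and MTHFD2. It was also the order of distance from the average random array over all genes, at 0.17, 0.19 and 0.38. Whether KLF2 or STAT3 acts on S1PR1 in these cells was not tested. STAT3, a transcription factor that can induce S1PR1 and be activated by it, read 10.78, 10.72 and 10.20 against 10.85, 10.99 and 11.06. It was lower on every aligned array, with a difference of -0.40 ± 0.16 (SE) that was -0.22 without aligned 3. The remaining 5 had differences of -0.08 to 0.07.

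Of the genes known to respond to S1P, 6 passed the filter and had differences of 0.01 to 0.77, with a median of 0.47 against 0.01 over all genes. This list was chosen with earlier results of these data known, so nothing is read from its median. The lowest difference was that of VEGFA, at 0.01. Without aligned 2, without aligned 3, without random 1 or with the mean of a gene's probe sets, 5 of 6 were positive. PLAUR, the urokinase receptor, read 10.75, 10.54 and 10.86 on aligned and 10.55, 10.15 and 9.92 on random fibers, a difference of 0.51 ± 0.16 (SE) with a slight overlap between aligned 2 and random 1. It was the 1 gene of the list at an unadjusted p under 0.05, and 0 passed after adjustment. Without random 2 or random 3 there were 0 genes at that unadjusted limit, without aligned 2 there were 2, and without random 1 there were 3. The urokinase gene PLAU and the matricellular genes CCN1 and CCN2, like VEGFA named after their values were seen, differed by 0.77, 0.34 and 0.64 with overlapping groups. In these 3 genes random 3 was the lowest array by a clear margin, at 8.71, 11.66 and 9.81. PLAUR and IL6 were also lowest in random 3, at 9.92 and 7.18, by a smaller margin. IL6, likewise singled out with its values known, differed by 0.42 ± 0.28 (SE) with overlapping groups. VEGFA alone had another lowest array, aligned 1 at 11.08. Without random 3 the difference of PLAUR was 0.37. Without random 3 the median of the list was 0.22, and without aligned 3 it was 0.34. These transcripts also respond to many other stimuli.

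**Figure D4:**
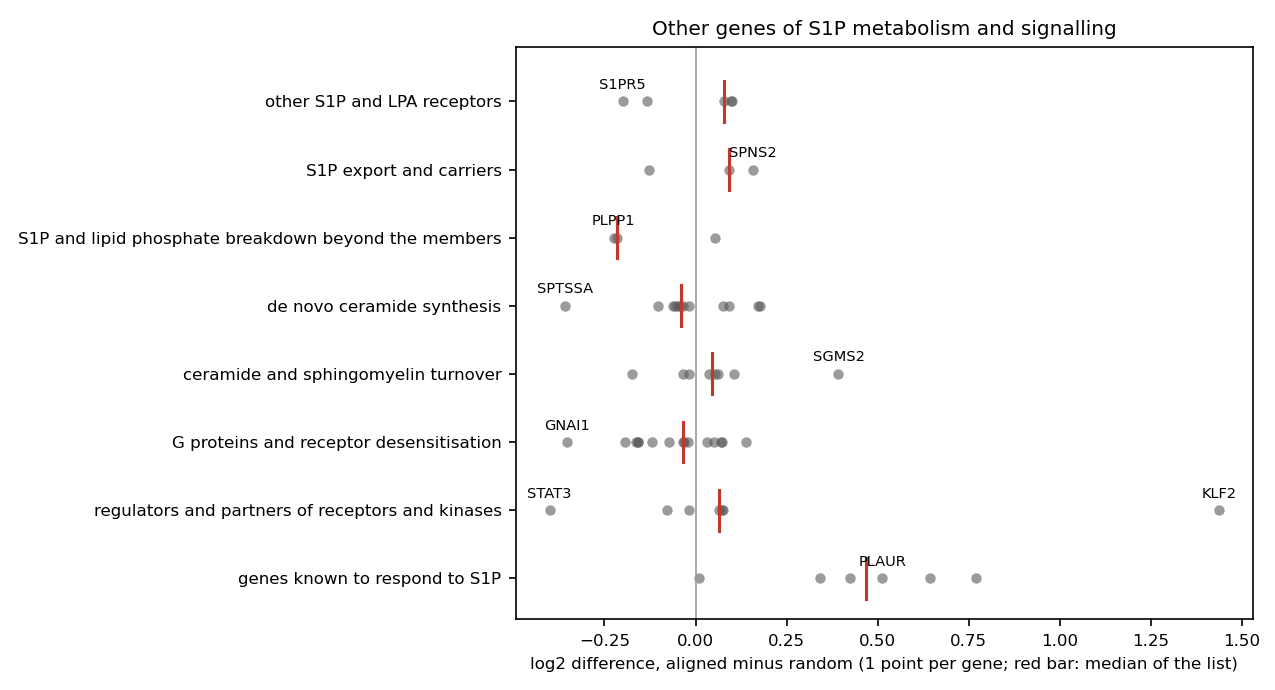
Log2 difference, aligned minus random (horizontal axis), of the 59 surrounding genes that passed the filter, 1 point per gene in 8 lists (vertical axis), with a red bar at each list's median. Most points lie near 0, KLF2 at 1.44 is the farthest from it, and the 6 genes known to respond to S1P lie at or above 0.01.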

How the data were processed

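The values deposited are on a log2 scale and, per the submitters' processing notes, come from RMA (background correction, a common distribution for all arrays, 1 summary per probe set). The RMA version is not given in the sources used here. Array medians lay between 5.63 and 5.66. The 62 control probe sets were set aside. Of the other 54613, 41091 had 1 gene symbol in the platform annotation, 1801 several and 11721 none, and 41037 of the 41091 matched the RefSeq gene table (GRCh38.p14). Probe sets were kept where at least 3 of 6 arrays lay above their own median, and a gene was read by its brightest kept probe set. Detection calls and scanner files were not used.

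limma 3.58.1 (lmFit, eBayes; R 4.3.3) was fitted to aligned minus random without covariates, on all kept probe sets and on genes, two-sided, with Benjamini-Hochberg adjustment over all of them at 0.05. Standard errors of members are from the probe set fit and those of other genes from the gene fit, except that probe sets below the filter take theirs from a fit with no filter. Precision is limited by having 3 arrays a group, with a median standard error of 0.10. The code was tested on simulated data. Figures were drawn with matplotlib 3.10.9. Promoter windows came from RefSeq, and 7 of the 8 members had one. The members and lists were chosen with earlier results of these data known. Genes named beside the members were, per list, up to 4 at an unadjusted p under 0.05 or else the one with the largest difference, and the 5 nearest to S1PR1.

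Between the arrays numbered 1, 2 and 3, deviations from the group means correlated over genes by 0.369, 0.322 and 0.109. Each was above the limit of 0.1 set for pairing. Aligned 2 and random 3, of unequal number, correlated by 0.188, so the limit does not establish that the numbers are pairs. Values and standard errors come from the unblocked fit, which does not use the numbers, and a blocked fit was an alternative. The labels give the numbers without saying what they share. Alternatives comprised a filter at the 75th percentile or none, centred medians, repeated quantile normalization, a trended robust prior, the replicate block, the mean of a gene's probe sets, omission of shared-sequence suffixes and each array left out.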

Additional observations from a re-analysis of the deposited data

How the results depend on the processing

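Under the alternatives, 24 differences of members and named genes gave 318 values. Of these 0 moved by the spread between replicates or more, but that count was largely fixed in advance. Leaving out 1 of 3 arrays cannot shift a group mean that far, and the block and the trended prior leave every difference unchanged. No stability is therefore read from it. In 5 of the 318 values the sign changed, all in S1PR2 and the pair of S1PR3 probe sets, whose main differences were between -0.20 and 0.03. S1PR1 lay between 0.68 and 1.01 and SPHK1 between 0.73 and 1.45 over the arrays left out in turn. Counts of probe sets at an unadjusted p under 0.05 were 1380 with the 75th percentile filter and 4698 with no filter, and 1262 to 4812 with an array left out. For genes they were 851 with the 75th percentile filter and 624 to 2491 with an array left out. For member probe sets they were 1 with the 75th percentile filter, which removes S1PR1, and 2 to 4 with an array left out. Omission of shared-sequence suffixes left 9395 genes, of which 1006 met that limit. It removed SPHK1, KLF2 and PSAT1, so their differences were not read in that setting. At an adjusted p under 0.05, 0 probe sets passed in every setting but one, with 1 without aligned replicate 1, and 0 genes passed in all. With the replicate number as a block, 3710 probe sets, 1687 genes and 3 member probe sets had an unadjusted p under 0.05, and no other call of a member changed. Signal near the array median limits S1PR1, and signal below it leaves PLPP3 unread.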
